A study of Rattus norvegicus with 18 samples.

Results

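The comparison described here set spontaneously hypertensive rats (SHRs) that drank trimethylamine N-oxide (TMAO) against SHRs that drank tap water, in RNA-seq of visceral white adipose tissue (vWAT). It used 12 of the 18 rats of the series, chosen by their labels: 6 rats given 1 g/L TMAO for 22 weeks (SHR-TMAO) and 6 on tap water over the same time (SHR-Water). Per the study's methods, all 12 were male, 7 to 8 weeks old at the start, randomly assigned and housed in shared cages, so rats of a cage may not be fully independent. The SHR is an inbred strain whose blood pressure rises with age, and both groups were of this strain. The remaining 6 rats, normotensive Wistar-Kyoto (WKY) rats on water, entered as a reference level and in an alternative fit of all 18 rats. Of 32883 genes counted, 20751 had at least 1 count in these 12 rats and 12852 had enough counts to be tested. The deposited table holds gene identifiers and positions without names, and none of the identifiers could be paired with a name, so genes are described by chromosome, start, end (rat build Rnor_6.0, Ensembl release 96) and the summed length of their exons. For the same reason adipocyte markers could not be looked up, and the labelled tissue was not checked against them.

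TMAO forms in the body when gut bacteria release trimethylamine from choline and carnitine and the liver oxidises it, and its level in the blood has been linked with cardiometabolic disease. Visceral white fat stores triglyceride, releases fatty acids and secretes hormones such as leptin and adiponectin, and it also holds vessels, fibroblasts and immune cells. In such a mixed tissue, fewer cells of a type and less RNA per cell cannot be told apart.

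The libraries held 14879416 to 18874161 counts in SHR-TMAO and 14939661 to 17251247 in SHR-Water (two-sided exact permutation test of the means, p = 0.286, n = 6 each). One library stood apart from the others. In SHR-TMAO replicate 3, 102 genes on 21 chromosomes had at least 100 counts and a level at least 10 times that of the highest of the other 11 rats, against 10 such genes in the other 11 rats together. These 102 genes summed to 87658 counts in that rat, or 0.522% of its library, and to at most 1183 counts in any other rat of the comparison. Only 19 of the 102 had enough counts to be tested in the fit, since a gene had to be present in several rats. Their source was not tested. Named fold changes that rest on this rat are given with and without it.

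Mitochondrial genes held a mean share of 16.76% ± 3.525 in SHR-TMAO and 21.44% ± 5.431 in SHR-Water (SD, n = 6 each; exact permutation p = 0.128, adjusted 0.192 over 3 library measures). The shares overlapped, running from 11.12% to 20.76% and from 15.52% to 28.53%. Of 15 tested mitochondrial genes longer than 150 bases, 12 had a lower mean in SHR-TMAO, with a median log2 fold change of -0.24 (range -0.73 to 0.48) and no adjusted p below 0.236. A trend with gene length was measured in each rat as Spearman's rho, across the genes tested, between exon length and the gene's deviation from its mean over the 12 rats, so a positive rho means that long genes took more of the library. The mean rho was -0.214 ± 0.1676 in SHR-TMAO and 0.1685 ± 0.3136 in SHR-Water (SD, n = 6 each), a difference of -0.3825 (two-sided exact permutation p = 0.0325, adjusted 0.0974 over the 3 measures). Within SHR-Water the rats were spread widely, with 0.4615, 0.4164 and 0.4563 in replicates 2, 3 and 4 and -0.2414 in replicate 1. Within SHR-TMAO, replicate 1 had the one positive value, 0.07552, and replicate 4 the lowest, -0.3914. SHR-Water replicates 1 and 6 and SHR-TMAO replicate 1 were each nearer to the mean of the other group than to that of their own. With a rat left out the unadjusted exact permutation p lay between 0.00866 and 0.0649, and it was above 0.05 in 7 of the 12 cases.

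**Figure D1:**
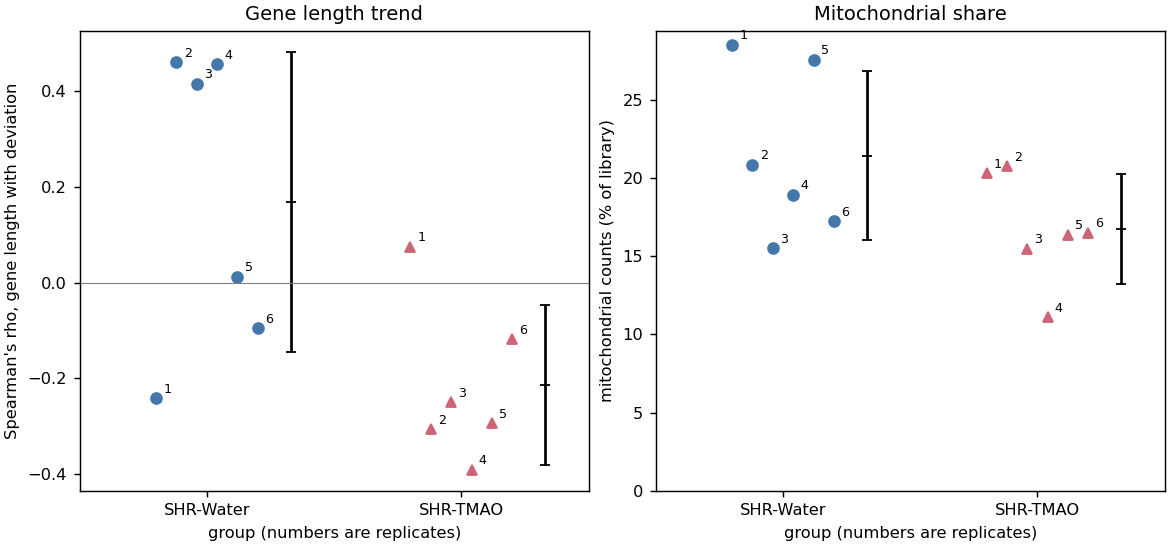
Gene length trend (Spearman's rho across genes, left) and mitochondrial share of counts (% of library, right) in each of the 12 rats, with replicate numbers; bars show the mean and SD of 6 rats. SHR-Water replicates 2, 3 and 4 had the highest trends, 0.4164 to 0.4615, while SHR-Water replicate 1 (-0.2414) sat among the SHR-TMAO rats.

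The question was which genes of vWAT differed after long TMAO intake. At the thresholds of the study, a Benjamini-Hochberg adjusted p under 0.05 and at least a 2-fold difference, edgeR's quasi-likelihood test called none of the 12852 genes (0.0%), with 3212 genes (25.0%) at an unadjusted p under 0.05, of which 1620 were higher (12.6%) and 1592 lower (12.4%) in SHR-TMAO. The smallest adjusted p was 0.0834, shared by 40 genes, 33 of them higher in SHR-TMAO. At an adjusted p under 0.1, there were 759 genes (5.91%), 478 higher (3.72%) and 281 lower (2.19%). The study's own tool, DESeq2, gave 403 calls among 13523 genes at the study's thresholds (2.98%), 109 higher (0.806%) and 294 lower (2.17%), and limma voom with sample quality weights gave 1087 among 12852 (8.46%), 297 higher (2.31%) and 790 lower (6.15%). The number of differentially expressed genes therefore depended on the test.

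Median fold changes at an adjusted p under 0.1 were modest. The 478 higher genes had a median of 1.54-fold (log2 0.62), and 77 of them reached 2-fold. The 281 lower genes had a median of 1.95-fold (log2 -0.96), and 133 reached 2-fold. The higher genes were the more abundant ones, with a median of 51.8 CPM (the count scaled to library size) against 15.3 for all genes tested and 9.71 for the lower genes. Across all genes tested the 95% interval of a gene's log2 fold change had a median half-width of 0.45, and for 8888 genes (69.2%) it lay wholly within 2-fold in either direction. Precision followed depth: the interval lay within 2-fold for 79.7% of the 1030 genes at 128 CPM or more and for 17.8% of the 449 genes under 1 CPM. For 18 genes the interval lay wholly beyond 2-fold. These intervals are not adjusted for the number of genes, and no gene had an adjusted p under 0.05 by edgeR with these rats. Some of the 18 rested on few rats. Among them are genes on chromosomes 4 and 13, described below, whose log2 fold changes of 4.76 and 3.68 became 0.65 and 0.39 without SHR-TMAO replicate 3.

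In 173 genes (1.35%) every SHR-TMAO rat lay outside the range of the SHR-Water rats, 117 above it (0.91%) and 56 below it (0.436%). The 12 higher and 12 lower of these with the smallest edgeR p are the genes described next. None had an adjusted p under 0.05 by edgeR with these 12 rats. All 24 had one by DESeq2 and by limma voom. With each of these tools 4 of the higher and 7 of the lower genes also reached 2-fold and were called. Over all genes, at any fold, 1187 of 13523 had an adjusted p under 0.05 by DESeq2 and 4103 of 12852 by limma voom. The 24 were picked from the same counts by small p and separate groups, so this is not separate support for them. All 24 kept their direction in each of the 24 alternative fits, those with a rat left out included. Genes chosen for groups that do not overlap have little room to turn, so this was largely set by the choice. Their adjusted p-values by edgeR were 0.0834 to 0.0841 and their levels are given as CPM after TMM normalization, which compares rats for 1 gene but not genes of different length.

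The gene with the smallest p was ENSRNOG00000006622 on the plus strand of chromosome 7, chr7:24534615-24634097, with 13 exons of 2922 bases in all. Its level ran from 1.71 to 3.27 CPM (median 2.19) in SHR-Water and from 4.08 to 10.5 CPM (median 7.28) in SHR-TMAO. All 6 treated rats lay above all 6 on water, and treated replicate 2 was the lowest of them. The difference was 3.18-fold (log2 1.67 ± 0.25 SE, 95% interval 1.13 to 2.21, edgeR adjusted p = 0.0834). In the 6 WKY rats the level was 2.38 to 5.07 CPM, so it reached from the upper part of the SHR-Water range into the lower part of the SHR-TMAO range. Among the 24 alternatives this gene passed both thresholds in 6. By other tools these were DESeq2 (adjusted p = 1.01e-06, log2 1.67) and limma voom (adjusted p = 0.00504, log2 1.70). By edgeR they were the fit of all 18 rats (adjusted p = 0.0475) and the fits without SHR-Water replicate 1 (0.0297), SHR-TMAO replicate 1 (0.00719) or SHR-TMAO replicate 2 (0.0332). Its largest adjusted p over the 24 was 0.344.

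The second was ENSRNOG00000032840, a single-exon gene of 994 bases at chr5:14983371-14984364, with 5.74 to 8.41 CPM (median 7.97) in SHR-Water and 11.4 to 15.1 CPM (median 14.2) in SHR-TMAO. The difference was 1.78-fold (log2 0.83 ± 0.14 SE, edgeR adjusted p = 0.0834), and its WKY range of 5.19 to 9.21 CPM covered that of the rats on water. A second single-exon gene, 639 bases at chr16:75873881-75874519, ran from 0.692 to 1.93 CPM in SHR-Water and from 2.89 to 5.5 CPM in SHR-TMAO (2.89-fold, log2 1.53 ± 0.27 SE). Its WKY levels were lower still, 0.451 to 1.28 CPM.

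Several of the higher genes were abundant and differed by a small but even step. The gene at chr14:70102814-70121797 (13 exons, 2186 bases) had 128 to 134 CPM in SHR-Water and 169 to 200 CPM in SHR-TMAO. The SD over the rats on water was 2.18 CPM, so a difference of 1.39-fold left a clear gap between the groups. At chr2:84645084-84666835 (6 exons, 1131 bases) the values were 113 to 134 CPM and 162 to 218 CPM, a 1.52-fold difference. At chr8:91464229-91656134 (11 exons, 1494 bases) they were 97.4 to 140 CPM and 171 to 217 CPM, a 1.50-fold difference. All 3 differences were below 2-fold, the study's threshold.

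Short genes were frequent among the 12 higher ones, whose exon length had a median of 861.5 bases against 2335 for all genes tested. The gene of 267 bases at chr9:61692154-61694599 had 68.1 to 100 CPM in SHR-Water and 108 to 167 CPM in SHR-TMAO (1.73-fold). That of 381 bases at chr7:65005791-65008823 had 4.37 to 5.95 CPM and 6.6 to 12.1 CPM (1.86-fold), and that of 624 bases at chr10:105564535-105565162 had 15.5 to 29.1 CPM and 32.4 to 60.0 CPM (1.94-fold). The treated rat nearest to the rats on water was SHR-TMAO replicate 1 in all 3, which was also the treated rat with the highest gene length trend. The gene of 729 bases at chr1:88652446-88657845 was higher by 2.14-fold and the single-exon gene of 75 bases at chr10:70109549-70109623 by 2.30-fold, the latter overlapping a gene on the opposite strand. The longest gene but one of the 12, at chr1:239266921-239301176 (4 exons, 2473 bases), had a median of 25.2 CPM in SHR-Water and of 40.8 CPM in SHR-TMAO (1.61-fold).

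Among the 12 lower genes, ENSRNOG00000010652 had the smallest p. It lies on the minus strand at chr8:22822412-22874645 and has 50 exons of 6928 bases in all. Its level was 38.2 to 50.3 CPM (median 45.1) in SHR-Water and 25.8 to 31.6 CPM (median 29.3) in SHR-TMAO, lower by 1.54-fold (log2 -0.62 ± 0.10 SE, edgeR adjusted p = 0.0834). The groups did not overlap, but the WKY rats, with a highest value of 73.9 CPM and a lowest below all treated rats, covered both. It overlaps another gene on the same strand, so how its reads were divided is uncertain. Once the gene length trend of each library was taken into the fit, its log2 fold change shrank to -0.31 (edgeR adjusted p = 0.172; 7.82e-06 to 0.395 over the alternatives). The next, ENSRNOG00000050490, is a single-exon gene of 67 bases at chr10:94982051-94982117 inside another gene's span, with 1.31 to 2.57 CPM in SHR-Water and 0.353 to 0.801 CPM in SHR-TMAO (2.97-fold lower, log2 -1.57 ± 0.27 SE).

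The largest difference of the 12 was at chr5:144448792-144479306 (19 exons, 2886 bases), with 1.59 to 4.98 CPM in SHR-Water and 0.316 to 1.07 CPM in SHR-TMAO. This was 4.39-fold lower in the treated rats (log2 -2.13 ± 0.41 SE, 95% interval -3.02 to -1.25, edgeR adjusted p = 0.0834), and SHR-TMAO replicates 3, 4 and 5 were the lowest. At chr18:41333551-41389510 (19 exons, 3182 bases) the values were 2.56 to 8.12 CPM and 0.619 to 2.30 CPM, 3.06-fold lower. A single-exon gene of 79 bases at chr10:13161510-13161588, which overlaps another gene on its strand, was 3.12-fold lower. All 3 were low in abundance, and their intervals were correspondingly wide.

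More abundant lower genes differed by smaller steps. At chr2:23770721-23852021 (3 exons, 4241 bases) SHR-Water held 58.8 to 73.4 CPM and SHR-TMAO 25.7 to 54.9 CPM, 1.74-fold lower. In the treated group replicates 1 and 2 had 54.9 and 54.7 CPM and the other 4 rats between 25.7 and 33.9 CPM, and the WKY range of 25.5 to 48.2 CPM lay below all SHR-Water rats. At chr1:221062147-221084129 (21 exons, 5136 bases) the levels were 84.1 to 93.4 CPM and 55.6 to 79.2 CPM, and at chr10:109519134-109520846 (5 exons, 1128 bases) 131 to 181 CPM and 66.9 to 125 CPM. The genes at chr9:81844138-81868086 (7317 bases) and chr1:73722088-73733788 (5708 bases) were lower by 2.04-fold and 2.01-fold, and those at chr7:15159422-15163866 (1668 bases) and chr12:16118634-16126953 (2137 bases) by 2.13-fold and 1.73-fold. The exon length of the 12 lower genes had a median of 3034 bases.

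**Figure D2:**
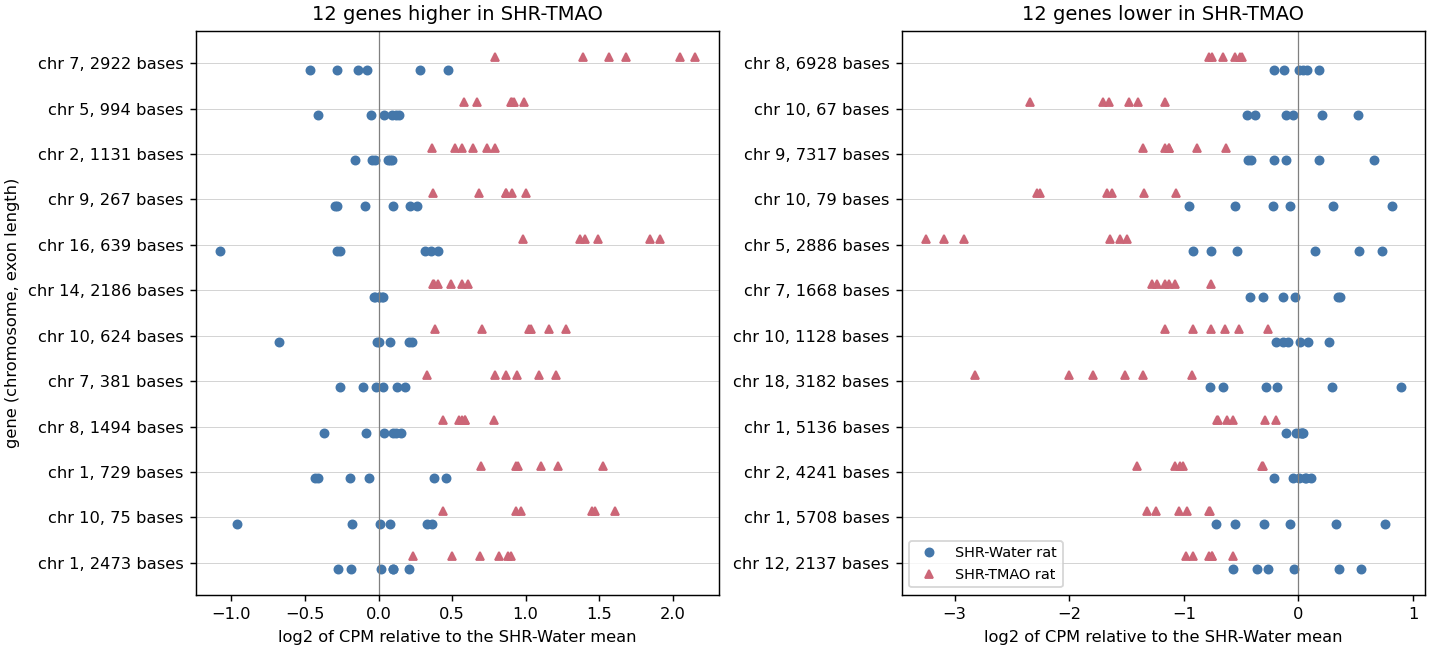
Levels of the 12 higher (left) and 12 lower (right) genes in each of 12 rats, as log2 of CPM relative to the mean of the 6 SHR-Water rats (circles SHR-Water, triangles SHR-TMAO; 1 point is 1 rat, and genes are ordered by edgeR p within each panel). In each gene all triangles lie to one side of all circles, which is how the genes were chosen. In the right panel the gap is narrow at chromosome 12, and the largest fold is at chromosome 5.

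Gene length separated the higher from the lower genes. At an adjusted p under 0.1 the higher genes had a median exon length of 1342.5 bases and a median of 6 exons, the lower genes 3711 bases and 16 exons, and all genes tested 2335 bases and 9 exons. Of 432 genes of 151 to 500 bases, 13.0% were higher and 0.694% lower, with a median log2 fold change over the class of 0.39. Of 2610 genes over 4000 bases, 0.536% were higher and 5.02% lower, with a median of -0.23. The classes between followed the same order, with 9.01%, 5.78% and 1.91% higher in those of 501 to 1000, 1001 to 2000 and 2001 to 4000 bases. The 70 genes of at most 150 bases departed from it, with 5.71% higher, 8.57% lower and a median of -0.13.

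This order moved with the gene length trend of the libraries described above. In a fit that took each library's trend as an offset, still no gene was called (0.0%), with 2818 (21.9%) at an unadjusted p under 0.05, and 342 genes (2.66%) had an adjusted p under 0.1, 261 higher (2.03%) and 81 lower (0.63%). Of the 759 genes, 270 kept an adjusted p under 0.1 (35.6% of the 759 and 78.9% of the 342), which were 195 of the 478 higher (40.8%) and 75 of the 281 lower genes (26.7%). The 261 higher genes then had a median length of 2249 bases and the 81 lower genes 2391 bases, both near that of all genes. The split was 478 to 281 with TMM, 281 to 270 with upper quartile normalization and 261 to 81 with the offset. Among the 24 genes described above, all 12 higher and 8 of the 12 lower genes kept an adjusted p under 0.1 with the offset, and the largest of the higher ones, on chromosome 7, had a log2 fold change of 1.80. By its construction the offset removes any difference that follows length, so a real difference between short and long genes cannot be told apart from one made in the libraries.

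**Figure D3:**
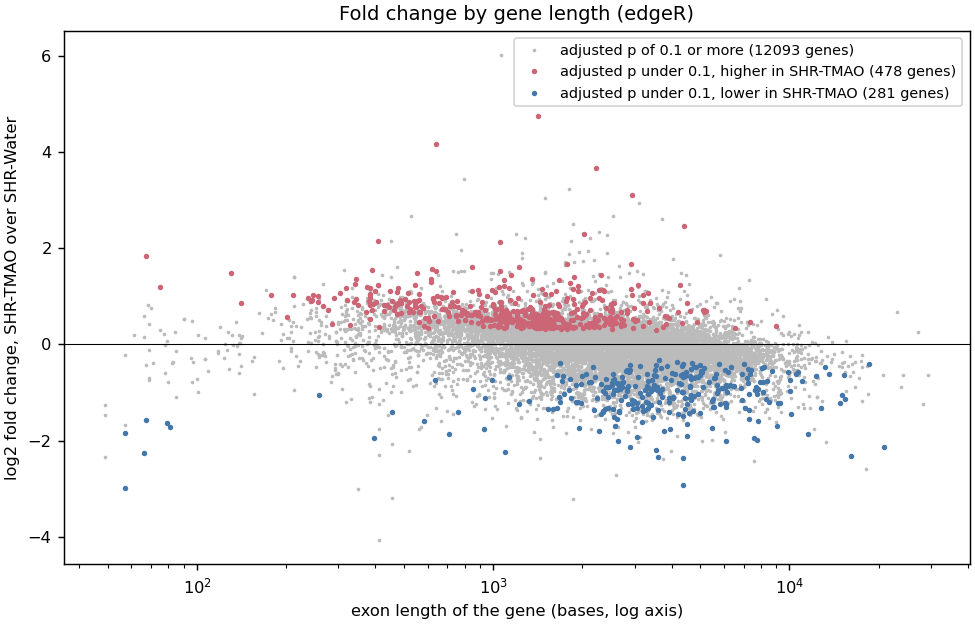
log2 fold change of SHR-TMAO over SHR-Water (edgeR) for 12852 genes against exon length in bases on a log axis; coloured points have an adjusted p under 0.1. The 478 higher genes have a median length of 1342.5 bases and the 281 lower genes one of 3711 bases.

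The share of genes at an adjusted p under 0.1 also followed abundance. At over 256 CPM, 12.3% of genes were higher and 0.418% lower at an adjusted p under 0.1, and at 64 to 256 CPM 9.15% and 1.5%. At 1 to 4 CPM the order was the other way round, with 0.98% higher and 3.14% lower. With the length offset, 5.86% of the genes over 256 CPM were higher and 0.209% lower. Over all genes tested the higher share also fell, from 3.72% to 2.03%, so the drop was not particular to abundant genes. The excess of higher genes among abundant ones was still present with the offset.

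**Figure D4:**
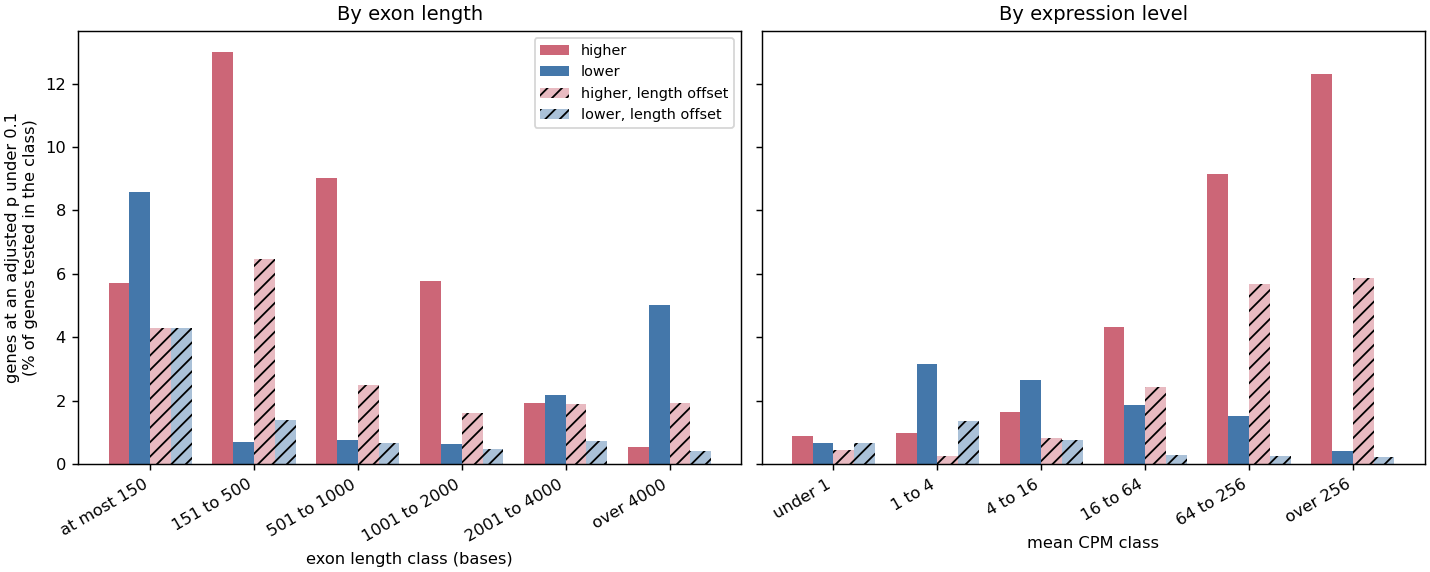
Percentage of genes tested at an adjusted p under 0.1 (edgeR) in each class of exon length (left, bases) and of mean CPM (right), higher or lower in SHR-TMAO; hatched bars come from the fit with the gene length offset. Higher genes peak at 13.0% in the class of 151 to 500 bases and at 12.3% over 256 CPM, and lower genes among the longer classes reach 5.02% over 4000 bases.

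The genes at an adjusted p under 0.1 lay on all 20 autosomes, on X and, for 2 short genes, on the mitochondrial genome. Higher genes made up 5.77% of 381 genes tested on X, 5.65% of 814 on chromosome 2 and 5.46% of 403 on chromosome 13, against 3.72% over all genes. Chromosome 19 had the lowest share of higher genes among the autosomes, 1.54% of 389. Lower genes made up 3.58% of 307 genes on chromosome 18, 3.42% of 818 on chromosome 7 and 3.15% of 1111 on chromosome 10, against 2.19% over all genes. With the length offset, 3.94% of the genes on X and 3.81% of those on chromosome 2 were higher, against 2.03% over all genes.

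Genes next to each other in the order of the genes tested formed 34 pairs of higher and 7 pairs of lower genes at an adjusted p under 0.1, and 2 runs of 3 higher genes. Over all genes tested 3.72% were higher and 2.19% lower. How many neighbours these shares alone would give was not computed, so the counts are not read as clustering. The tighter run, singled out after its values were seen, spans 17.7 kb at chr5:155246447-155264143 and holds 3 genes on the minus strand, each with 3 exons and with exon lengths of 1083, 1090 and 1048 bases. The first had 23.1 to 87.1 CPM (median 39.5) in SHR-Water and 65.4 to 172 CPM (median 102) in SHR-TMAO. The second had 32.3 to 125 CPM (median 59.2) and 80.1 to 296 CPM (median 160), and the third 47.3 to 149 CPM (median 70.2) and 101 to 300 CPM (median 181). In all 3 genes the groups overlapped: SHR-Water replicate 1 was the highest rat on water and lay above SHR-TMAO replicates 1 and 3, and SHR-TMAO replicate 4 was the highest of all 12. The differences were 2.34-fold, 2.52-fold and 2.30-fold (log2 1.22 ± 0.33, 1.34 ± 0.36 and 1.20 ± 0.31 SE, edgeR adjusted p = 0.0854, 0.0854 and 0.0849). With the length offset they were 1.06, 1.17 and 1.02 on the log2 scale, and over all alternatives the adjusted p of the first lay between 0.00522 and 0.344. The WKY medians of 142, 174 and 173 CPM were above the SHR-Water medians in all 3 genes.

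The largest fold changes among the higher genes rested on few rats. The 3 genes of largest fold among the higher ones at an adjusted p under 0.1, chosen after their values were seen, were each set by 1 or 2 treated rats. At 4.76 on the log2 scale, the gene of 1420 bases on chromosome 4 had 141 CPM in SHR-TMAO replicate 3 and 0.907 to 2.15 CPM in the other 5 treated rats, against 0.375 to 1.59 CPM in SHR-Water. Without that rat its log2 fold change was 0.65 (edgeR adjusted p = 0.371). The gene of 2216 bases on chromosome 13, at 3.68, had 124 CPM in the same rat and at most 2.83 CPM in the other 5, and without it 0.39 (edgeR adjusted p = 0.403). The third, chr1:32573228-32581781 (log2 4.18 ± 1.11 SE), had 30.4 and 70.2 CPM in replicates 4 and 6 and 1.03 to 2.11 CPM in the other 4 treated rats. Without replicate 6 its log2 fold change was 2.88 (edgeR adjusted p = 0.139). Over all genes, without SHR-TMAO replicate 3 edgeR called no gene, with 2650 at an unadjusted p under 0.05 and none at an adjusted p under 0.1, and DESeq2 called 202.

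Of the 3 lower genes of largest fold at an adjusted p under 0.1, also chosen after their values were seen, the first and second below were more even over the rats. The third, of 57 bases, was not. At chr9:20264418-20278261 (4376 bases, log2 -2.93 ± 0.68 SE) 5 of the 6 rats on water, at 1.31 to 10.9 CPM, lay above all treated rats, whose highest was 0.894 CPM, and SHR-Water replicate 6 had 0.183 CPM. At chr14:86514214-86530701 (4368 bases, log2 -2.37 ± 0.51 SE), which overlaps another gene on its strand, 5 of 6 again lay above all treated rats, at 1.18 to 4.64 CPM against at most 0.907 CPM. The gene of 57 bases at chr14:46655342-46655398 (log2 -3.0 ± 0.89 SE) had 72.7 and 121 CPM in SHR-Water replicates 1 and 2 and 1.59 to 22.4 CPM in the other 4, against 1.87 to 7.36 CPM in SHR-TMAO. Its WKY levels ran from 0.671 to 274 CPM (median 2.14). Leaving out the highest rat on water gave -2.30 at the first (edgeR adjusted p = 0.188), -2.08 at the second (0.188) and -2.17 at the third (0.202).

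Several of the genes of largest fold among the 403 calls of DESeq2 also rested on few rats. At chr1:11963836-11968939 (1140 bases) the fold was -7.25 ± 1.31 SE on the log2 scale (DESeq2 adjusted p = 5.45e-05), with 383, 4113 and 1476 counts in SHR-Water replicates 1, 2 and 3. Replicates 4, 5 and 6 had 50, 2 and 1 counts and the treated rats 3 to 13, so 2 rats on water lay below all of the treated ones. Without SHR-Water replicate 2 the log2 fold change was -5.91 (DESeq2 adjusted p = 0.00254). In the WKY rats the level of this gene ran from 0.145 to 431 CPM (median 1.55). The single-exon gene of 156 bases at chr18:6586925-6587080 (log2 4.79 ± 0.97 SE, DESeq2 adjusted p = 0.000526) was more even: SHR-Water had at most 2 counts in a rat, SHR-TMAO replicate 1 had 0, and the other 5 treated rats had 14 to 34. The gene at chr2:210685197-210688272 (log2 4.16) had 249, 235 and 73 counts in SHR-TMAO replicates 2, 3 and 5, and 5 to 10 in the other 3. Without replicate 2 its log2 fold change was 3.47 (DESeq2 adjusted p = 0.00905), and without replicate 3 it was 3.75 (0.0267). Its WKY range of 5.32 to 18.5 CPM lay above the highest SHR-Water rat (0.824 CPM) and the SHR-TMAO median (2.34 CPM). The gene at chr1:32573228-32581781 was among them too (log2 4.15). A gene of 411 bases on chromosome 14 (log2 -4.06) held 938 counts in SHR-Water replicate 2 and at most 140 in any other rat of the comparison. Without that rat its log2 fold change was -2.04 and it was no longer called (DESeq2 adjusted p = 0.353). Its WKY levels ran from 0.0641 to 110 CPM (median 1.08). The other 5 genes had log2 fold changes of 3.98, 3.74, -4.04, -4.00 and -3.73, and the highest rat of each held 93, 396, 173, 80 and 53 counts in that order. Without that rat the log2 fold changes were 2.23, 2.54, -2.92, -1.88 and -2.04, and DESeq2's filter gave none of the 5 an adjusted p.

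Of the 403 genes called by DESeq2, 351 were among those tested by edgeR. Of these, 208 had an edgeR adjusted p under 0.1, and in 31 the 2 groups did not overlap, 15 higher and 16 lower. Over all 12852 genes tested by edgeR the shares were 5.91% and 1.35%. Both tools used the same counts, so genes shared between them are not separate support. Of the 294 lower calls, the highest rat on water was replicate 2 in 138, replicate 4 in 84 and replicate 3 in 52, which are the 3 libraries with the highest gene length trend. Of the 109 higher calls, the highest treated rat was replicate 4 in 43 and replicate 3 in 25. How often each rat was the highest over all genes tested is not given, so these counts only describe the calls. The lower calls that edgeR tested had a median exon length of 3604.5 bases and the higher ones 1020 bases. The part of these libraries in the calls was not tested beyond the fits with a rat left out.

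Leaving out a rat moved the number of calls in both directions. Without SHR-Water replicate 1, edgeR called 685 genes, 179 higher and 506 lower, and without SHR-TMAO replicate 1 it called 442, 151 higher and 291 lower. Both are among the 3 rats whose gene length trend was nearer to the mean of the other group, and without the third, SHR-Water replicate 6, edgeR called none. Without SHR-TMAO replicate 2 it called 2 genes, ENSRNOG00000006622 on chromosome 7 and a gene of 6044 bases at chr15:52241801-52261276 (log2 -1.53, edgeR adjusted p = 0.0446). Without any of the other 9 rats it called none, with 2268 to 3237 genes at an unadjusted p under 0.05. At an adjusted p under 0.1 there were 3605 and 2921 genes without SHR-Water replicate 1 and SHR-TMAO replicate 1, 358 once SHR-Water replicate 6 was left out, 2 in the fit lacking SHR-TMAO replicate 2, and none in the other 8 fits of this kind. DESeq2 called 971 genes without SHR-Water replicate 1 and 870 without SHR-TMAO replicate 1. It called 129 to 139 without SHR-Water replicate 2, 3 or 4, and 228, 202, 96 and 205 without SHR-TMAO replicates 2, 3, 4 and 5. The genes whose groups did not overlap numbered 494 without SHR-Water replicate 1 and 910 without SHR-TMAO replicate 1. Leaving out any other rat gave 179 to 263 such genes, against 173 with all rats. A separation of the groups is easier to reach with a rat fewer, but this applies to each of these fits alike. Why the number differed between the rats left out was not tested.

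**Figure D5:**
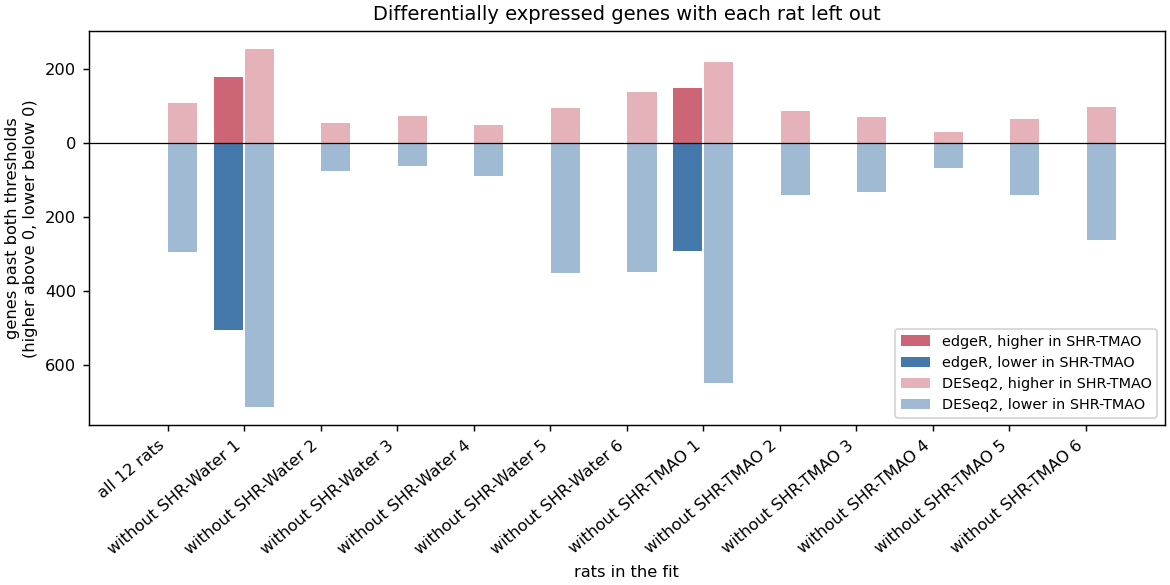
Number of genes past both thresholds (adjusted p under 0.05 and at least 2-fold), higher above 0 and lower below 0, with all 12 rats and with each rat left out, by edgeR (dark) and DESeq2 (light). With edgeR, bars that can be seen stand at SHR-Water replicate 1 (685 genes) and SHR-TMAO replicate 1 (442 genes); 2 genes without SHR-TMAO replicate 2 are too few to see.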

How the data were processed

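RNA of vWAT was isolated with TRIzol and libraries were made with SMART technology and sequenced by the authors. Per the submitters' processing notes the tools were cutadapt 2.5, HISAT2 2.1.0 and featureCounts 1.6.3. The authors deposited whole-number counts of reads per gene on Rnor_6.0 (Ensembl release 96 in the file header, GENCODE in the methods), counted on 1 strand, neither normalized nor filtered. Everything else was computed here from these counts, in R 4.3.3 with edgeR 4.0.16 (TMM, filterByExpr, quasi-likelihood test, Benjamini-Hochberg adjustment), DESeq2 1.42.0 and limma 3.58.1, and in Python 3.11.15 with scipy 1.17.1. A differentially expressed gene had an adjusted p under 0.05 and an absolute log2 fold change of at least 1. The biological coefficient of variation was 0.314. Library measures were compared by exact permutation over 924 assignments of the 12 rats, which allows no p below 0.00216. The length trend used log2(CPM + 0.5), and the offset was a loess curve (span 0.3) of the deviation on log exon length in each library. Library totals are given in the report, and counting error is largest for genes with few counts.

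Named genes were the 12 higher and 12 lower of smallest edgeR p whose groups did not overlap, and the 5 higher and 5 lower of largest fold among DESeq2's calls. Identifiers are printed for 4 of them. The members, lists and tests were chosen with earlier results of these data known. Lists of pathway genes, cell type markers and genes the study names were prepared by symbol and not used here, because 0 of 32883 identifiers matched the 47357 reference genes. The replicates are separate rats. No library was a duplicate of another. Counts were also simulated from the means and dispersions of this comparison, with only well-counted genes changed and an adjusted p under 0.05 at any fold taken as found. The simulated rats varied independently gene by gene, without the gene length trend or outlying rats seen here. The recovery therefore does not measure what the tests could find in the real libraries. There edgeR found 49 of 67 genes changed 2-fold, 67 of 67 changed 3-fold and 66 of 66 changed 4-fold, with 10 unchanged genes of 12742. DESeq2 found 51 of 67, 67 of 67 and 66 of 66, with 27 unchanged genes of 12852. Alternatives were other normalizations, filters and tests, all 18 rats in the fit, mitochondrial genes removed, the length offset, a replicate block, and each rat left out. The leave-outs of the library measures, the length offset with the block, and the genes with a level at least 10 times that of any other rat were added after the data were seen.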

Additional observations from a re-analysis of the deposited data

Results flagged for a closer look

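The 54 groups of 6 values examined were the library measures and the 12 higher and 12 lower genes chosen for separate groups, in SHR-TMAO and SHR-Water. Of these, 2 held a rat far from the others by Dixon's criterion, where chance gives about 1 in 20. The genes chosen for large folds, several of which rested on few rats, were not examined in this way. The gene at chr10:105564535-105565162, higher in SHR-TMAO, had 15.5 CPM in SHR-Water replicate 2 and 24.6 to 29.1 CPM in the other 5 rats on water. The gene at chr7:15159422-15163866, lower in SHR-TMAO, had 1.87 CPM in SHR-TMAO replicate 6 and 1.31 to 1.51 CPM in the other 5 treated rats. In both genes the groups did not overlap with this rat included.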

How the results depend on the processing

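Against no call by edgeR with all 12 rats, DESeq2 gave 403 calls, limma voom with sample quality weights 1087 and edgeR with all 18 rats 1 (the gene ENSRNOG00000006622 on chromosome 7). The limma weights were lowest for SHR-Water replicate 1 (0.314) and SHR-TMAO replicate 1 (0.482). The 759 genes at an adjusted p under 0.1 became 2141 with DESeq2, 5423 with limma voom, 342 with the gene length offset and 0 without the low count filter, where more genes were tested. Genes at an unadjusted p under 0.05 numbered 3212 with edgeR and 5651 with limma voom. With the length offset the median exon length moved from 1342.5 to 2249 bases in the higher and from 3711 to 2391 bases in the lower genes at an adjusted p under 0.1. Other normalizations, a stricter filter, the robust fit and removal of mitochondrial genes kept the totals of genes within 1.5 times. By direction, upper quartile normalization took the higher genes at an adjusted p under 0.1 from 478 to 281, a larger shift. With the replicate number as a block, 0 genes had an adjusted p under 0.1 and 1864 an unadjusted p under 0.05, and 0 and 1713 with block and length offset together. Rats with the same number did not deviate together (correlations of -0.367 to -0.0102), so the numbers were not taken as pairs, and no rat deviated most like its own number. With 1 rat left out, edgeR called 0 to 685 genes, and 0 to 3605 had an adjusted p under 0.1 (0 in 8 of the 12 cases). DESeq2 called 96 to 971, with 736 to 4184 at an adjusted p under 0.1, non-overlapping genes numbered 179 to 910, and the difference in length trend was -0.4645 to -0.3239. Directions of named genes held in all fits: 821 gene and setting pairs kept their side of the threshold, 195 passed it newly, 47 no longer passed, and 0 turned. The named genes were chosen for groups that did not overlap or for large folds, so their directions had little room to turn. The cause of these shifts was not tested. Medians of gene lists were not run, since identifiers had no names. Depth limits genes under 1 CPM most.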

Other observations

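A second run of 3 neighbouring higher genes, on X at chrX:42328840-43592200, is spread over 1260 kb. Its first gene, of 393 bases, had 7.56 to 15.1 CPM in SHR-Water and 12.9 to 24.0 CPM in SHR-TMAO (1.79-fold, edgeR adjusted p = 0.0841). The second, of 907 bases, had 19.1 to 38.1 CPM and 27.2 to 63.2 CPM (1.72-fold, adjusted p = 0.0849). The third, of 1622 bases, had 32.8 to 43.2 CPM and 42.2 to 58.4 CPM (1.29-fold, adjusted p = 0.099), and with the length offset its log2 fold change was 0.28. SHR-Water replicate 1 was the highest rat on water in the first and second gene and the lowest in the third, and SHR-TMAO replicate 1 was the lowest treated rat in all 3.

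One gene had counts in all 6 treated rats and 0 in all 6 on water: at chr7:125920357-125925430 (1026 bases) SHR-TMAO replicate 3 had 4607 counts and the other 5 treated rats 1 to 4 each. The converse gene, at chr10:1563390-1567731 (1393 bases), had 1 to 5 counts in each rat on water, 13 in all, and 0 in all treated rats. Both were chosen after their values were seen.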
